A study of Mus musculus with 6 samples.

Results

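The transcripts described here are those of 9 genes used as markers of monocytes, dendritic cells and their progenitors: Ccr2, Cx3cr1, F13a1, Ms4a6c, Ly86, Itgax, Siglech, Cd209a and Batf3. They were found by symbol among the 23420 genes of the deposited tables, and genes of MHC class II were kept apart from them. All 9 were present in the tables, and 8 passed the filter on low counts and entered the test, with Cd209a below it. Total RNA, made into stranded libraries, came from LSK cells of mouse bone marrow, the lineage-negative, Sca-1-positive and c-Kit-positive fraction with the stem cells and multipotent progenitors of blood. The groups were 3 bcat(ex3)osb mice (mutant mice below), whose osteoblasts carried constitutively active β-catenin signalling, and 3 wild-type (WT) littermates, with 1 library per mouse. Neither the ages of the mice nor the Cre driver behind the mutant genotype is given in the labels. The mutation was made in osteoblasts, so the blood cells sequenced were not its target, and the level of Ctnnb1, the β-catenin gene, does not check the genotype. It was 302.5 ± 33.5 CPM in the mutants and 384 ± 109 CPM in WT controls (counts scaled to a common library total, mean ± SD, n = 3 each).

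Monocytes and dendritic cells arise from progenitors downstream of the LSK fraction, through stages shared with granulocytes and then stages of their own. Chemokine receptors steer these cells out of the marrow and into tissues, surface lectins and integrins let them bind microbes and other cells, and transcription factors of the IRF and BATF families set the dendritic subsets apart. Some multipotent progenitors already carry low levels of such transcripts before their fate is fixed, which is called lineage priming. RNA of whole sorted fractions cannot tell more cells of a kind from more RNA per cell, and this holds for every value below.

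Total counts were between 15431235 and 19956774 per library. The library of mutant mouse 2 lay apart from the other 5 on the first principal component, with 50.8% of the variance. Counts of Xist and of Y-linked genes showed mutants 1 and 2 to be male and the other 4 mice to be female, so that sex and genotype are partly confounded. Markers of the sorted fraction were present in every library: Kit was between 323 and 1002 CPM and Flt3 between 746 and 1231 CPM. The 15 LSK marker genes had a median log2 fold change of -0.35, and 2 were positive. Ly6a, which encodes Sca-1, was between 65.9 and 81.5 CPM in the mutants and between 148 and 162 CPM in WT controls.

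In 5 of the 8 tested genes, Ccr2, F13a1, Ms4a6c, Ly86 and Itgax, every mutant mouse lay above every WT mouse. The differences between group means ran from 2.2-fold for Ms4a6c to 5.04-fold for F13a1. In Siglech, Cx3cr1 and Batf3 the groups overlapped. The mutant mice lay far apart from each other in Cx3cr1 and Batf3, and in Siglech mutant mouse 1 lay far above the other mutant mice. Over all genes tested, 6.89% had all 3 mutant libraries above all 3 WT libraries and 7.67% had all 3 below, which held for 0 of the 8. No gene of the 8 passed edgeR's quasi-likelihood test at an adjusted p under 0.05 over the 12653 genes tested, and 0% of all genes passed as higher. At an unadjusted p under 0.05 the same 5 genes were higher, against 3.43% of all genes, and 0 were lower, against 3.13%. DESeq2 called 4 of the 8 as higher (Ccr2, F13a1, Ms4a6c and Itgax), against 0.798% of all genes, and limma-voom called 0. All 8 tested genes had a positive log2 fold change, with a median of 1.46, where the median over all genes tested was 0.00 and 50.3% were positive. The genes were chosen with results of these data known, so these counts are a description. For a single gene the exact two-sided permutation test of 3 against 3 libraries gave p = 0.1 for each of the 5 genes, the smallest it can give.

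**Figure D1:**
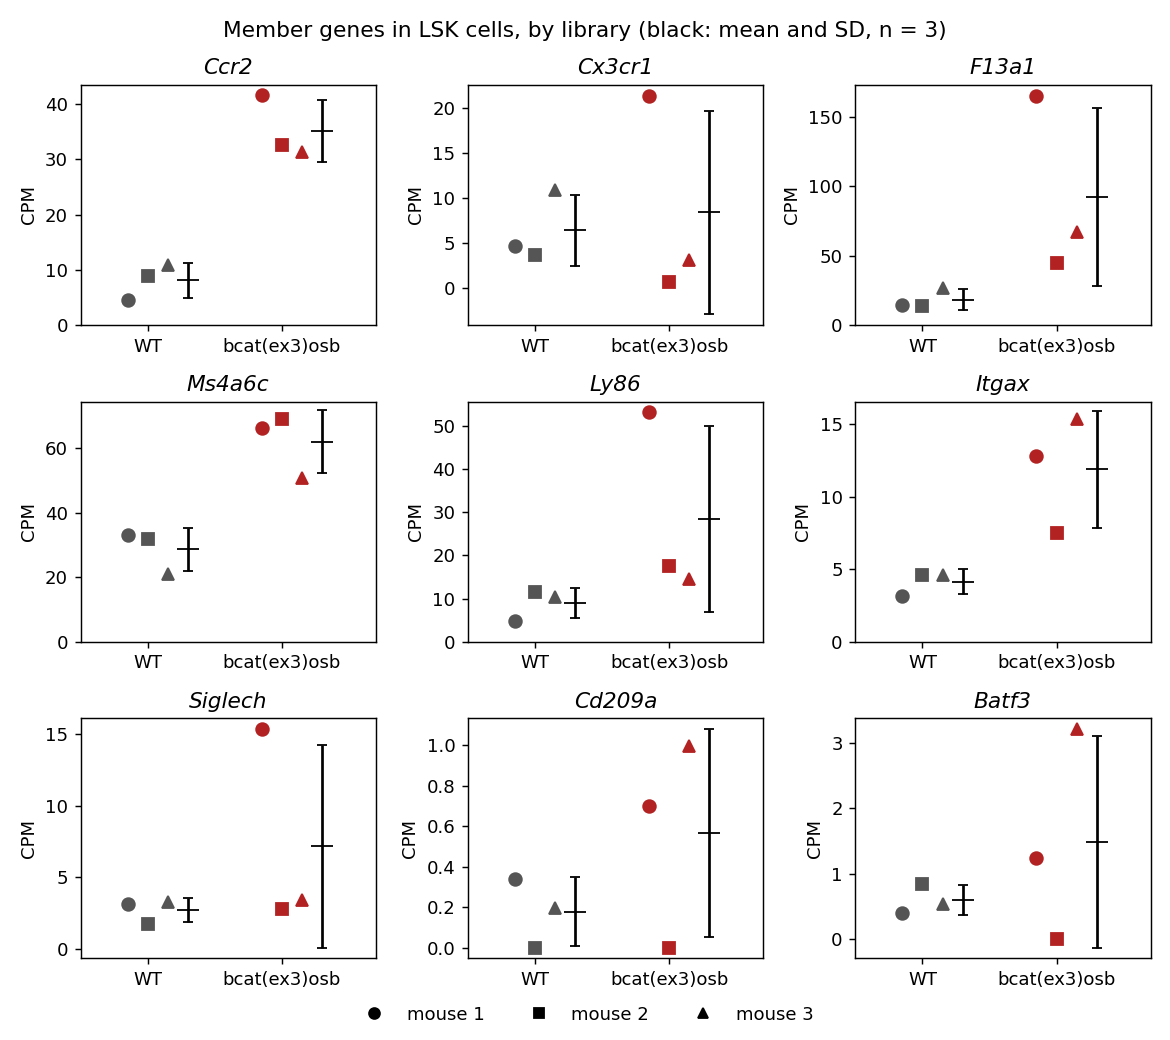
CPM of the 9 genes in each library (grey, WT; red, bcat(ex3)osb; marker shape, mouse number within the group; black bar, mean and SD, n = 3). Mutant and WT mice separate in Ccr2, F13a1, Ms4a6c, Ly86 and Itgax and overlap in Cx3cr1, Siglech, Cd209a and Batf3.

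Of the chemokine receptors, Ccr2 separated the groups and Cx3cr1 did not. Ccr2 encodes the receptor by which classical monocytes leave the marrow towards CCL2 and related ligands. It lies on chromosome 9 from 124101918 to 124109140 (GRCm38.p6, plus strand). Ccr2 had 773, 505 and 564 counts in mutants 1, 2 and 3, and 94, 135 and 224 counts in WT controls 1, 2 and 3. These were 41.6, 32.6 and 31.3 CPM against 4.56, 8.78 and 10.9 CPM. The mutant mice were close together, and the lowest of them was far above the highest WT mouse. The log2 fold change of Ccr2 was 2.12 ± 0.35 (SE), with edgeR's adjusted p at 0.312. It was the gene with the 11th smallest unadjusted p of the table (0.000304). With DESeq2 its adjusted p was 1.21e-05, and over all alternatives the adjusted p ran from 1.21e-05 to 0.9999, the latter with sex as a covariate.

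Cx3cr1 encodes the fractalkine receptor, high on patrolling monocytes, on tissue macrophages and on the shared progenitor of macrophages and dendritic cells. Its locus is on chromosome 9, from 120048683 to 120068296 (minus strand). Its level was 21.4, 0.645 and 3.10 CPM in mutants 1, 2 and 3, and 4.61, 3.64 and 10.8 CPM in WT controls 1, 2 and 3. Mutant mouse 1 was the highest of all 6 mice and mutant mouse 2, with 10 counts, the lowest, and mutant mouse 3 was also below every WT mouse. The log2 fold change was 0.40 ± 1.04 (SE), with edgeR's adjusted p at 0.964, and its sign turned without mutant mouse 1 (-1.76). The ratio of Ccr2 to Cx3cr1, as counts per base of gene length within a library, does not depend on library scaling. It was 2.04, 52.8 and 10.5 in mutants 1, 2 and 3, and 1.03, 2.52 and 1.05 in WT controls 1, 2 and 3. The ratio was thus near even in 2 WT mice and widest in mutant mouse 2, and mutant mouse 1 lay below WT mouse 2.

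The genes of monocyte surface and secreted proteins, F13a1, Ms4a6c and Ly86, were higher in every mutant than in every WT mouse. F13a1 encodes the A chain of coagulation factor XIII, which crosslinks fibrin and is made by monocytes and megakaryocytes. Its locus is on chromosome 13, from 36867178 to 37050244 (minus strand). F13a1 was at 165.5, 44.8 and 67.3 CPM in mutants 1, 2 and 3 (3075, 694 and 1213 counts), and at 14.5, 13.7 and 26.8 CPM in WT controls 1, 2 and 3. Mutant mouse 1 stood well above the other mutant mice, and the lowest mutant mouse was still above the highest WT mouse. For F13a1 the log2 fold change was 2.33 ± 0.51 (SE), with edgeR's adjusted p at 0.333 (0.000588 with DESeq2, and up to 0.9999 over the alternatives). Without mutant mouse 1 the log2 fold change of F13a1 was 1.61. Exons of the predicted gene Gm30489 overlap those of F13a1, as do those of Gm33858 with Cx3cr1, with 0.404% and 1.06% of the 50-base windows recurring in other genes.

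Ms4a6c encodes a 4-transmembrane protein of myeloid cells and lies on chromosome 19 from 11469353 to 11487182 (plus strand). Its level was 66.3, 69.2 and 50.9 CPM in mutants 1, 2 and 3, and 33.1, 31.9 and 21.1 CPM in WT controls 1, 2 and 3. Its spread, from lowest to highest mouse, was 0.44 log2 units among mutant mice, next to the 0.41 of Ccr2, and 0.65 among WT mice. Its log2 fold change was 1.11 ± 0.25 (SE), with edgeR's adjusted p at 0.337 (0.00953 with DESeq2, and up to 0.9999 over the alternatives). In the GENCODE annotation, exons of the antisense transcript BE692007 overlap those of Ms4a6c, and 51.4% of the 50-base windows of the Ms4a6c transcripts recur in other genes, 993 of 1028 such windows in that transcript. The libraries were stranded, but the strand setting of the counting is not given, so reads from either strand may have entered this count.

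Ly86 encodes MD-1, a secreted protein that pairs with the Toll-like receptor relative CD180. The gene is on chromosome 13, from 37345345 to 37419036 (plus strand). F13a1 is its nearest neighbour on one side, 295100 bases away with 0 protein-coding genes between them. Ly86 was at 53.2, 17.5 and 14.5 CPM in mutants 1, 2 and 3, and at 4.90, 11.4 and 10.4 CPM in WT controls 1, 2 and 3. The groups did not overlap, but mutant mouse 3 was only slightly above WT mouse 2, and mutant mouse 1 carried most of the difference. The log2 fold change was 1.67 ± 0.56 (SE) with edgeR's adjusted p at 0.595. It was 0.84 without mutant mouse 1 and 0.70 with sex as a covariate.

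Of the genes of dendritic cell surface proteins, Itgax separated the groups, while Siglech and Cd209a did not. Itgax encodes CD11c, the α chain of an integrin that marks dendritic cells and is also carried by some monocytes and macrophages. The gene lies on chromosome 7, from 128129526 to 128150657 (plus strand). Itgax was at 12.8, 7.48 and 15.4 CPM in mutants 1, 2 and 3, and at 3.15, 4.62 and 4.62 CPM in WT controls 1, 2 and 3. Here mutant mouse 3 was the highest and mutant mouse 2 the lowest of the mutant mice, and all 3 were above the WT mice. For Itgax the log2 fold change was 1.53 ± 0.39 (SE), with edgeR's adjusted p at 0.483 (0.0203 with DESeq2, and up to 0.9999 over the alternatives).

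Siglech encodes a sialic acid-binding lectin of plasmacytoid dendritic cells, the subset known for making type I interferon, and of their progenitors. It lies on chromosome 7 from 55768154 to 55779448 (plus strand). Siglech was at 15.3, 2.77 and 3.38 CPM in mutants 1, 2 and 3, and at 3.10, 1.76 and 3.26 CPM in WT controls 1, 2 and 3. Only mutant mouse 1 was clearly above the WT mice, and mutant mouse 2 lay within their range. For Siglech the log2 fold change was 1.40 ± 0.71 (SE), with edgeR's adjusted p at 0.798, and it was 0.18 without mutant mouse 1 and 0.32 with sex as a covariate.

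Cd209a encodes a mouse relative of human DC-SIGN, a C-type lectin of monocyte-derived and some conventional dendritic cells. Its locus is on chromosome 8, from 3743395 to 3748984 (minus strand). Cd209a had 13, 0 and 18 counts in mutants 1, 2 and 3, and 7, 0 and 4 counts in WT controls 1, 2 and 3. Each group thus held 1 library with no count, in which 3 counts would be 0.194 CPM for mutant mouse 2 and 0.195 CPM for WT mouse 2. At this depth no difference was detectable: without a filter on low counts the log2 fold change was 1.60 ± 1.54 (SE), with edgeR's adjusted p at 0.827.

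Batf3, the transcription factor gene of the set, is needed for the conventional dendritic cells that cross-present antigen to CD8 T cells. It lies on chromosome 1 from 191098414 to 191108943 (plus strand). Batf3 had 23, 0 and 58 counts in mutants 1, 2 and 3, and 8, 13 and 11 counts in WT controls 1, 2 and 3. The levels were 1.24, 0 and 3.22 CPM against 0.388, 0.845 and 0.535 CPM. Mutant mice 1 and 3 were above every WT mouse and mutant mouse 2 below all of them, where 3 counts would be 0.194 CPM. The log2 fold change of Batf3 was 1.34 ± 1.22 (SE), with edgeR's adjusted p at 0.895, and it was 0.10 without mutant mouse 3 and 2.45 with sex as a covariate.

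The sequences before the start sites of F13a1 and Itgax are shown because these genes come first in their roles above. Those of Ms4a6c and Siglech were added with their values known, as another gene that separated the groups and one that did not. For each gene the 220 bases from 250 to 31 bases before the start site of the RefSeq promoter table are given, 5′ to 3′ on the gene's strand, from RefSeq on GRCm38.p6, and no exon in GENCODE lay within them. For F13a1, which has more than 1 start site in the table, the outermost was taken. For Ms4a6c, Itgax and Siglech the start site of that table lies inside the outer bound of the gene given above. Distances are counted from the table's site and not from that bound. The window of Siglech ends at base 55768153, next to the gene's bound at 55768154. Capitals mark matches, on either strand, to 4 motifs of myeloid transcription factor families: GAGGAA (the core bound by PU.1), TTGCNNAA (C/EBP type), AANNGAAA (IRF type) and CACCC (bound by KLF factors).
F13a1, chr13:37050275-37050494, minus strand: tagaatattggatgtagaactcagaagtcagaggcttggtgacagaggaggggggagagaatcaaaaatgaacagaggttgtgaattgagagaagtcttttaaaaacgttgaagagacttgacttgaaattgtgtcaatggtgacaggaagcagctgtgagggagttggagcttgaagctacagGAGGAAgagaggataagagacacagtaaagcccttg
Ms4a6c, chr19:11469118-11469337, plus strand: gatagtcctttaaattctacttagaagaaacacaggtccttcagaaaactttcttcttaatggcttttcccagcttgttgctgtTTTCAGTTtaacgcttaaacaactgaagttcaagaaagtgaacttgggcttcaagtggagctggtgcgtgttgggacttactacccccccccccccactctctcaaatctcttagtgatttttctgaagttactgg
Itgax, chr7:128129300-128129519, plus strand: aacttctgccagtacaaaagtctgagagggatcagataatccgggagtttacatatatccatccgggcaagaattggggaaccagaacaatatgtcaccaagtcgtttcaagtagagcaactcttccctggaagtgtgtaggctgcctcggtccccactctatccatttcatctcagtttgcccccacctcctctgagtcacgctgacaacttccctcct
Siglech, chr7:55767934-55768153, plus strand: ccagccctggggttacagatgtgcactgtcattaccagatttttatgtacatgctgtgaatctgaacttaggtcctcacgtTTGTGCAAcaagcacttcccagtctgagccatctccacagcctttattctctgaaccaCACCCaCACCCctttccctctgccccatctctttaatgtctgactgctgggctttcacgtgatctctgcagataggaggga

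F13a1 had 1 match to GAGGAA, from 66 to 61 bases before the start site, and 20.4% of the 32851 windows of this length in the table held that motif. Siglech had 1 match to TTGCNNAA and 2 to CACCC, motifs held by 8.78% and 47.8% of all windows. Ms4a6c had 1 match to AANNGAAA, from 166 to 159 bases before the start site and on the opposite strand, a motif held by 19.2% of all windows. In the window of Itgax none of the 4 motifs was found, which says only that these letters are not in it. A match of letters is not evidence of binding.

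Between genes, levels can be compared only per gene length, for which the deposited FPKM (fragments scaled by gene length and by the library total) was used. Among WT mice Ms4a6c, Ly86 and F13a1 were the 3 highest of the 9 genes in every library, at 14.4 ± 3.37, 9.13 ± 3.43 and 4.81 ± 1.94 FPKM (SD, n = 3). The same 3 genes were the highest in every mutant library, at 29.3 ± 3.48, 27.9 ± 21.8 and 23.3 ± 16.6 FPKM. Ms4a6c and Ly86 overlapped in both groups, as did Ly86 and F13a1 in both. Ccr2 followed at 2.30 ± 0.90 FPKM in WT and 9.55 ± 1.76 FPKM in mutant mice, overlapping F13a1 in the mutants and Cx3cr1 in WT mice. In WT mice Cx3cr1 (1.75 ± 1.08), Siglech (1.17 ± 0.38), Itgax (1.05 ± 0.19) and Batf3 (0.84 ± 0.31) came next, with overlapping ranges. In mutant mice their order was Siglech (2.95 ± 2.97), Itgax (2.92 ± 1.14), Cx3cr1 (2.22 ± 3.00) and Batf3 (2.12 ± 2.34), again overlapping. Cd209a was lowest, at 0.13 ± 0.12 FPKM in WT and 0.39 ± 0.35 FPKM in mutant mice.

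**Figure D2:**
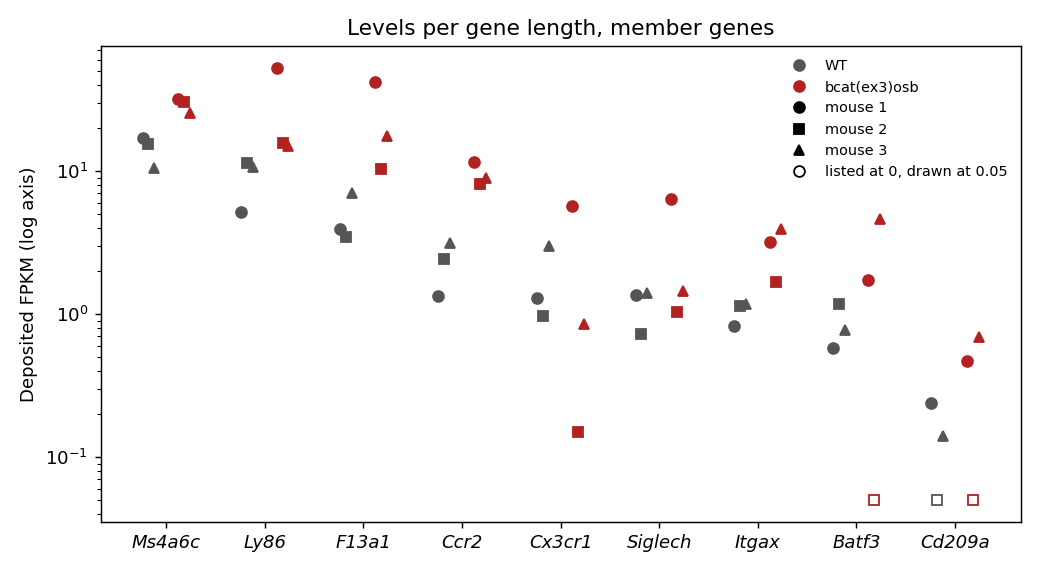
Deposited FPKM of the 9 genes in each library on a log axis, ordered by the WT mean (grey, WT; red, bcat(ex3)osb; open symbols, listed at 0 and drawn at 0.05). Ms4a6c, Ly86 and F13a1 are the 3 highest in every library, and Batf3 and Cd209a are listed at 0 in mutant mouse 2.

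The mutant mice did not share one profile of these genes. Relative to the WT mean on the log2 CPM scale, mutant mouse 1 was higher in all 9 genes, by 1.07 for Batf3 to 3.24 for F13a1. Mutant mouse 2 was higher by 0.87 to 2.09 in Itgax, Ly86, Ms4a6c, F13a1 and Ccr2, near the WT mean in Siglech (0.09), and lower in Cx3cr1 (-3.03). Batf3 and Cd209a had 0 counts in mutant mouse 2, so that their values there (-3.48 and -1.67) are set by the prior count of 1 and measure no size of difference. Cd209a had 0 counts and the same value in WT mouse 2. The WT mean of this gene, and so its value in every library, also depends on the prior count. Mutant mouse 3 had its largest values in Cd209a (2.58), Batf3 (2.40), Ccr2 (2.04), F13a1 (1.94) and Itgax (1.90), and was lower in Cx3cr1 (-0.86). The spread among mutant mice was 4.94 log2 units for Cx3cr1, against 1.56 among WT mice, while for Ccr2 it was 0.41 against 1.25. Summed over the 9 genes, the level was 378, 175 and 189.9 CPM in mutants 1, 2 and 3, and 68.7, 76.7 and 88.6 CPM in WT controls 1, 2 and 3. Without mutant mouse 2, the library that stood apart, Siglech and Batf3 joined the 5 genes whose groups did not overlap, where 11.6% of all genes then had both mutant mice above the WT mice. Leaving out any other single library gave the same 5 genes, and the share of all genes above without overlap was then 12.03% without mutant mouse 1, 10.6% without mutant mouse 3, and 9.42%, 16.9% and 9.002% without WT mice 1, 2 and 3.

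**Figure D3:**
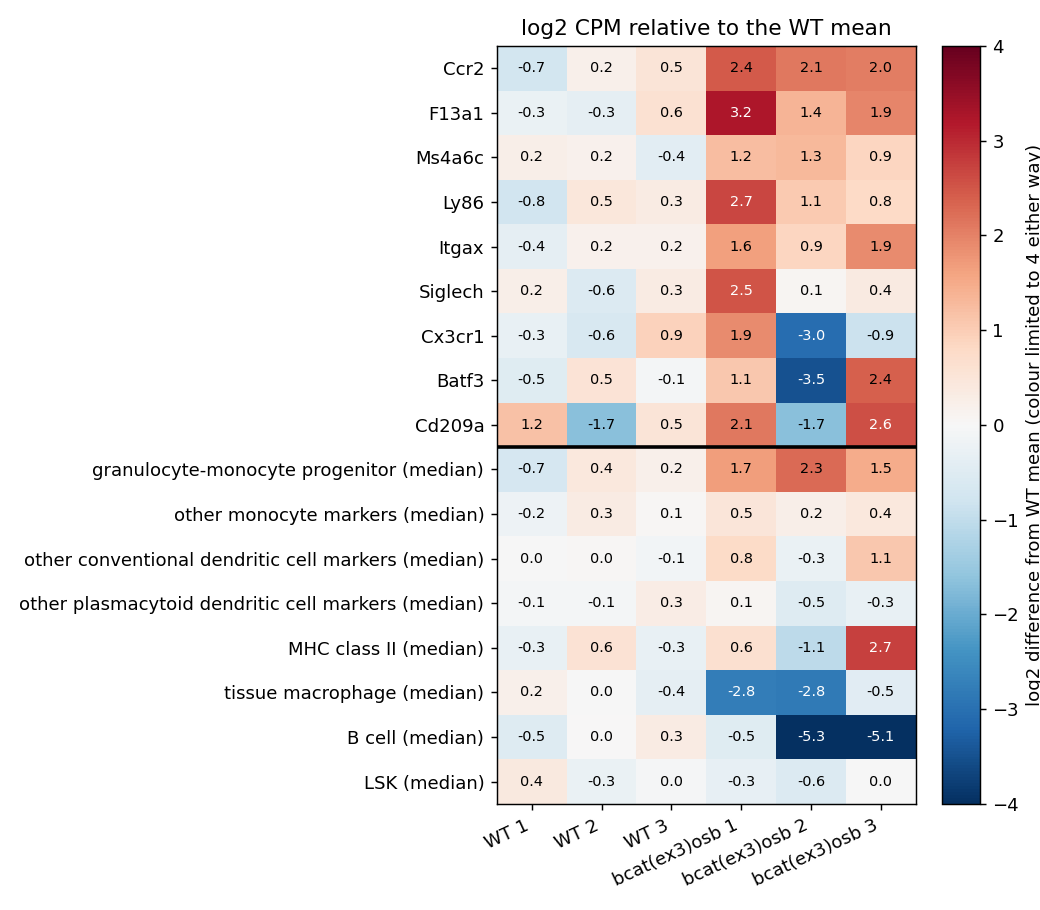
Log2 CPM relative to the WT mean in each library, for the 9 genes (above the line) and as medians over the tested genes of 8 marker lists (below it). Ccr2, F13a1, Ms4a6c, Ly86 and Itgax are above 0 in all 3 mutant mice, while Cx3cr1 is at -3.0 in mutant mouse 2. Values of Batf3 and Cd209a in mutant mouse 2, and of Cd209a in WT mouse 2, rest on 0 counts and are set by the prior count. The WT mean of Cd209a, and so its value in every library, also depends on it.

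Pairs of the 8 tested genes were compared by the root mean square difference of these profiles over the 6 libraries. Ccr2 and F13a1 were the most alike (0.54), followed by Ms4a6c and Itgax (0.60), and Ccr2 and Cx3cr1 the least alike (2.45). The neighbours F13a1 and Ly86 differed by 0.67. Among all other named and tested genes, the 6 nearest to the mean profile of the 8 genes were Klf4 (0.22), Irf8 (0.24), Nlrc4 (0.32), Cd7 (0.33), Hvcn1 (0.35) and Havcr2 (0.38). The mean profile was 2.09, 0.03 and 1.18 in mutants 1, 2 and 3 and between -0.30 and 0.30 in WT mice. The value of mutant mouse 2 was pulled down by Cx3cr1 (-3.03) and by Batf3 at 0 counts. The median of the 8 genes in that mouse was 0.97, so the mean profile does not describe most of them there. Irf8, a transcription factor of monocyte and dendritic cell development, had 2.05, 0.53 and 1.04 in mutants 1, 2 and 3. Klf4, a transcription factor of monocyte differentiation, had 1.66, 0.19 and 1.18, at a low level of 0.388 to 1.88 CPM. These genes were picked from the whole table for their likeness, so their likeness is a description of these 6 libraries.

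**Figure D4:**
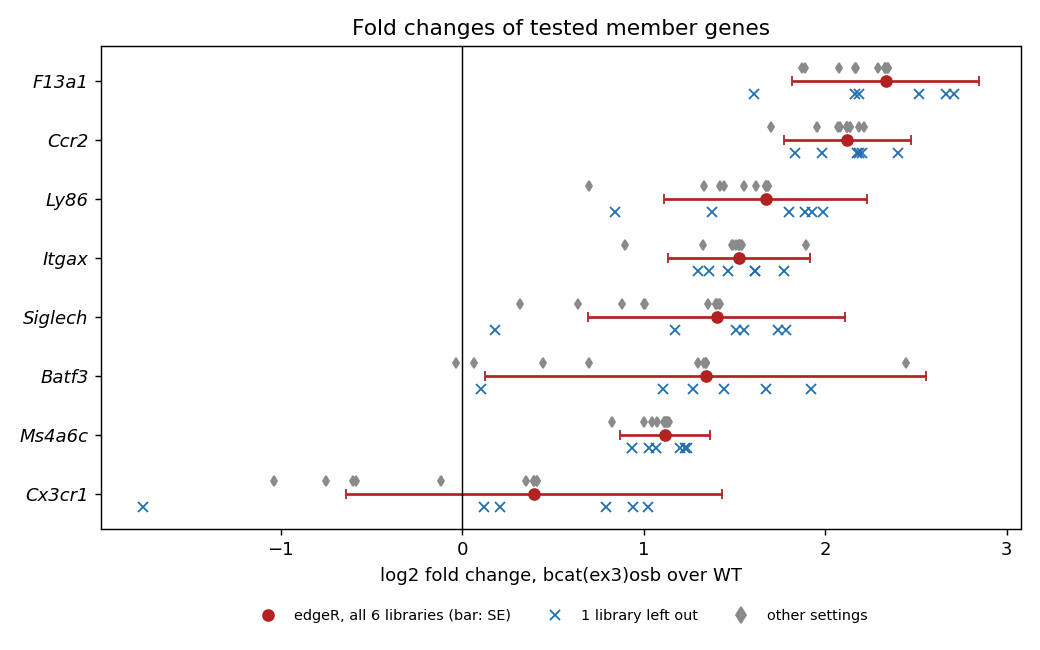
Log2 fold changes of the 8 tested genes, mutant over WT (red, edgeR with all 6 libraries, bar SE; blue crosses, 1 library left out; grey, other settings). F13a1, Ccr2, Itgax, Ly86 and Ms4a6c stay above 0 in every setting, and Cx3cr1 lies on either side of 0.

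The proteins that bind those of the 9 genes had transcripts of several patterns. Of 13 such genes 9 were tested, 0 passed edgeR's test at an adjusted p under 0.05, and the median log2 fold change was 0.33. An unadjusted p under 0.05 was reached by 4 higher genes and 1 lower gene, against 3.43% and 3.13% of all genes tested. Among ligands, Ccl2, Ccl7 and Ccl12, which bind CCR2, had 0 counts in all WT libraries. Ccl2 was at 1.23 and 0.610 CPM in mutants 2 and 3 and at 0 counts in mutant 1. F13b, the B chain of factor XIII, had 0 counts in all 6 libraries, as had Ccl7. Cx3cl1, the ligand of CX3CR1, was at 0.700, 0.452 and 0.887 CPM in mutants 1, 2 and 3 and between 1.37 and 6.84 CPM in WT controls. Cd180, the partner of MD-1, was at 11.3, 6.52 and 9.81 CPM in the mutants and at 10.2, 6.70 and 13.7 CPM in WT controls, so the groups overlapped where Ly86 did not. The ratio of Ly86 to Cd180 per base was 11.0, 6.26 and 3.44 in mutants 1, 2 and 3, and 1.12, 3.99 and 1.77 in WT controls 1, 2 and 3. Itgb2, the β chain that pairs with CD11c and with other integrins, had a log2 fold change of 0.29 ± 0.31 (SE). The ratio of Itgax to Itgb2 per base was between 0.0637 and 0.0997 in mutant and between 0.0204 and 0.0632 in WT mice, without overlap but with mutant mouse 2 and WT mouse 2 nearly equal. Tyrobp, the adaptor DAP12 through which Siglec-H signals, was at 118, 202 and 112 CPM in the mutants and at 42.6, 100.5 and 74.6 CPM in WT controls, without overlap.

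Batf3 protein acts with JUN and IRF partners. Junb was at 119, 221 and 134 CPM in mutants 1, 2 and 3 and between 59.2 and 77.8 CPM in WT controls, a log2 fold change of 1.26 ± 0.27 (SE) with edgeR's adjusted p at 0.333. Irf8 was at 536, 188 and 266 CPM in the mutants and at 92.4, 144 and 164 CPM in WT controls, a log2 fold change of 1.31 ± 0.40 with edgeR's adjusted p at 0.557. Mutant mouse 1 was the highest in Irf8, as it was in 5 of the 9 genes: F13a1, Ly86, Siglech, Cx3cr1 and Ccr2. Jun was at 159, 81.0 and 45.4 CPM in the mutants and at 49.95, 23.8 and 22.8 CPM in the controls, with mutant mouse 3 below WT mouse 1. Jund was at 127 to 162 CPM against 96.8 to 136 CPM. Irf4 was at 7.38, 0 and 0.111 CPM in the mutants and at 5.38, 2.15 and 4.67 CPM in WT controls, so mutant mice 2 and 3 were below and mutant mouse 1 above all WT mice.

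**Figure D5:**
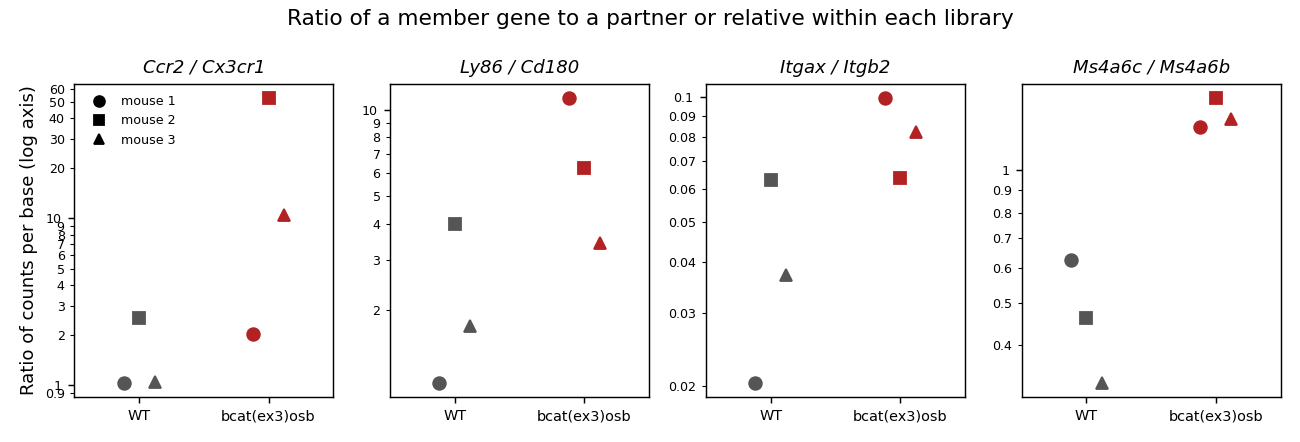
Ratio of counts per base of gene length between a gene of the set and a relative or partner within each library, on log axes that differ between panels (grey, WT; red, bcat(ex3)osb; marker shape, mouse number within the group). Groups do not overlap for Itgax over Itgb2 and Ms4a6c over Ms4a6b, and overlap for Ccr2 over Cx3cr1 and Ly86 over Cd180. Ratios that were computed but not drawn also overlap: F13a1 over Ccr2, Itgax over Itgam, Siglech over Tyrobp and Batf3 over Batf.

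Relatives of the 9 genes lay on either side of no difference. Of 15 tested relatives 5 had a positive log2 fold change (median -0.03), and edgeR's test called 0 of them at an adjusted p under 0.05. An unadjusted p under 0.05 was reached by 1 higher and 1 lower gene, against 3.43% and 3.13% of all genes tested. Ccr1, a receptor for other CC chemokines, was at 7.27, 20.6 and 7.32 CPM in the mutants and between 1.26 and 2.41 CPM in WT controls (log2 fold change 2.60 ± 0.55, SE, edgeR adjusted p = 0.333). Ms4a6b, a relative of Ms4a6c, was at 43.3, 38.9 and 31.9 CPM in the mutants and at 43.5, 56.8 and 52.7 CPM in WT controls. Here the mutant mice were below, but mutant mouse 1 and WT mouse 1 were nearly equal (edgeR adjusted p = 0.795). The ratio of Ms4a6c to Ms4a6b per base was 1.26, 1.46 and 1.31 in mutants 1, 2 and 3, and 0.625, 0.462 and 0.328 in WT controls 1, 2 and 3. Itgam, which encodes CD11b, was at 75.8, 8.71 and 54.1 CPM in the mutants and at 65.6, 20.9 and 55.4 CPM in WT controls. The ratio of Itgax to Itgam per base overlapped between the groups. It was 0.197, 0.9995 and 0.331 in mutants 1, 2 and 3, and 0.0559, 0.257 and 0.0971 in WT controls 1, 2 and 3. Siglecg, a lectin of B cells, was between 11.2 and 21.5 CPM in the mutants and between 41.6 and 46.4 CPM in WT controls (log2 fold change -1.45 ± 0.27, SE, edgeR adjusted p = 0.314). Batf, the relative of Batf3, had a log2 fold change of 0.00 ± 0.27.

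Other genes of the lineage gave mixed values, and 0 genes of the lists that follow passed edgeR's test at an adjusted p under 0.05. At an unadjusted p under 0.05, 3.43% of all genes tested were higher and 3.13% lower. Of 15 tested transcription factors of the lineage 9 had a positive log2 fold change (median 0.56), and by unadjusted p under 0.05 the list held 4 higher and 1 lower. Id2, needed for conventional dendritic cells, was at 54.1, 60.3 and 106 CPM in the mutants and between 14.9 and 20.7 CPM in WT controls. Cebpb, a factor of monocytes, was at 115, 155 and 126 CPM in the mutants and between 50.4 and 83.8 CPM in WT controls. Spib, a factor of plasmacytoid dendritic cells and B cells, was the lower gene, at 2.53, 0 and 0.333 CPM in the mutants and between 5.33 and 11.0 CPM in WT controls. Of 19 tested further monocyte markers 13 had a positive log2 fold change (median 0.58), and by unadjusted p under 0.05 the list held 5 higher and 1 lower. Ly6c2, the surface marker of classical monocytes, was at 89.8, 213 and 78.1 CPM in the mutants and between 11.1 and 26.2 CPM in WT controls. Lyz2, lysozyme of monocytes and neutrophils, was between 225 and 282 CPM in the mutants and between 317 and 392 CPM in WT controls, the reverse of Ly6c2. Clec12a, a C-type lectin of myeloid cells, was at 137, 192 and 101 CPM in the mutants and at 28.0, 61.3 and 49.7 CPM in the controls. The chemokine gene Ccl9 was at 177, 345 and 151 CPM in the mutants and at 43.9, 103 and 81.0 CPM in the controls. Transcripts of 2 other monocyte genes were scarce in both groups. Ace had 0 counts in all mutant libraries and 20, 0 and 3 counts in WT controls 1, 2 and 3. Vcan was at most 0.260 CPM in any library.

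Of 18 tested further markers of conventional dendritic cells 15 had a positive log2 fold change (median 0.91), and by unadjusted p under 0.05 the list held 2 higher and 0 lower. By library their order was that of Batf3: the median relative to the WT mean was 0.75, -0.27 and 1.08 in mutants 1, 2 and 3. Xcr1, the chemokine receptor of the Batf3-dependent subset, was at 5.11, 0.452 and 20.2 CPM in the mutants and between 1.46 and 3.58 CPM in WT controls. Clec9a, a receptor for dead cells on the same subset, was at 2.75, 0.194 and 5.60 CPM in the mutants and between 0.291 and 2.73 CPM in WT controls. Snx22, another marker of that subset, was at 3.18, 2.39 and 14.6 CPM in the mutants and at 0.910 to 1.26 CPM in the controls. Cadm1, an adhesion molecule of that subset, was at 4.15, 2.32 and 24.1 CPM in the mutants and between 0.824 and 2.28 CPM in WT controls. Mutant mouse 3 was thus the highest and mutant mouse 2 the lowest mutant mouse in each of these, as in Batf3, Itgax and Cd209a. Not all genes of the list had this order. Cst3 was at 526, 618 and 706 CPM in mutants 1, 2 and 3, and Clec10a at 11.5, 26.3 and 11.0 CPM. The 8 genes of MHC class II gave 0.65, -1.05 and 2.73 as medians in mutants 1, 2 and 3, the same order. The order of the medians did not hold for every gene of that list. H2-DMb1, with its smallest unadjusted p, was at 44.9, 85.9 and 79.3 CPM in mutants 1, 2 and 3. For plasmacytoid markers 8 of 15 tested had a positive log2 fold change (median 0.11), and by unadjusted p under 0.05 the list held 2 higher and 2 lower. Pld4, a nuclease of plasmacytoid dendritic cells, was at 176, 121 and 68.8 CPM in the mutants and at 32.6 to 61.8 CPM in the controls, and Cd300c was at 0.610 to 2.69 CPM against 0.065 to 0.486 CPM. Ly6d was at 151 CPM in mutant mouse 1, where Siglech was also highest, at 2.26 and 3.99 CPM in mutants 2 and 3 and from 26.1 to 41.2 CPM in WT controls. Ccr9 was lower in each mutant mouse, at 6.41, 0.258 and 7.93 CPM against 17.4 to 29.3 CPM in WT controls.

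Markers of other cell types also differed between libraries. Among genes of granulocyte-monocyte progenitors 12 of 14 tested lay above the WT mice in all mutant mice, against 6.89% of all genes tested. The list summed to 9804, 13249 and 7653 CPM in mutants 1, 2 and 3 and to 2296 to 4449.7 CPM in WT controls. Mpo alone held 6203, 6471 and 4545 CPM of this in mutants 1, 2 and 3. In WT controls 1, 2 and 3 it held 1040, 2260 and 2597 CPM. Hp (haptoglobin), Igsf6 and Cebpa, a transcription factor of myeloid progenitors, had the smallest p of that list, with log2 fold changes of 2.99 ± 0.39, 2.10 ± 0.33 and 1.26 ± 0.20 (SE; edgeR adjusted p = 0.292 for each). Mast cell and basophil genes summed to 388 to 743 CPM in the mutants and 212 to 248 CPM in WT controls. Gata2, which is also an LSK marker gene here, held 124.5, 226 and 234 CPM of this in mutants 1, 2 and 3. In WT controls 1, 2 and 3 it held 162, 130 and 121 CPM, more than the rest of the list. Tpsb2 and Cma1 were below every WT mouse in mutant mouse 1 (0.323 and 0.108 CPM) and above every WT mouse in mutants 2 and 3. B cell genes summed to 612, 101 and 81.4 CPM in mutants 1, 2 and 3 and to 639.9 to 1098 CPM in WT controls. Mutant mouse 1, with the highest Siglech, Ly86 and Cx3cr1, was thus the mutant mouse near the WT level of B cell genes. Tissue macrophage genes, 1 of 12 with a positive log2 fold change, summed to 24.5 to 100.5 CPM in the mutants and 109 to 173 CPM in WT controls, and Cd5l had 0 counts in the mutant libraries. Neutrophil genes summed to 51.0 to 149.8 CPM in the mutants and 21.2 to 165 CPM in WT controls. Genes of T and NK cells summed to 92.5 to 148 CPM in the mutants and 141 to 159.8 CPM in WT controls. Lck held most of this, with 60.5 to 125 CPM in the mutants and 113 to 133 CPM in WT controls. Ncr1 and Gzma, both below the filter on low counts, had 0 counts in the mutant libraries. In WT controls 1, 2 and 3, Ncr1 had 2, 2 and 8 counts and Gzma had 9, 14 and 8. Erythroid and megakaryocyte genes summed to 69.4 to 184 CPM against 54.4 to 94.8 CPM, with Hba-a1 and Hba-a2 at 0 counts in all libraries. Itga2b held 45.7 to 126 CPM of this in the mutants and 20.7 to 33.7 CPM in WT controls. Niche stroma and endothelial genes summed to 72.3 to 163 CPM against 88.0 to 145 CPM. Most of this was Pecam1, with 63.7 to 140 CPM in the mutants and 59.4 to 105 CPM in WT controls. A sum is carried by the highest genes of its list and does not give an amount of a cell type. The part of these other cells in the differences of the 9 genes was not tested.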

How the data were processed

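Counts per gene and, per library, gene length and FPKM were deposited by the authors. The tools were featureCounts 1.5.0-p3, STAR 2.5.2b and bcl2fastq 2.17, and the build mm10, per the submitters' processing notes. No source used here gives the strand setting or the annotation. Deposited FPKM equalled the count scaled by length and total within 0.005. Counts were analysed as deposited with edgeR 4.0.16 in R 4.3.3. The filter was filterByExpr with genotype as the group. It kept genes above a CPM cutoff equal to 10 counts at the median library size in at least 3 of the 6 libraries, of either genotype. A total of at least 15 counts was also required. Then came TMM scaling and a quasi-likelihood F test with genotype as the only term. Benjamini-Hochberg adjustment was over 12653 genes, with a threshold of 0.05. CPM is relative to the TMM-scaled total, and SE was derived from the F statistic. Log2 CPM for profiles used a prior count of 1. Alternatives were other scalings and filters, DESeq2 1.42.0, limma 3.58.1 (voom, and log2 FPKM with 1 or 0.1 added), a block on mouse number, a sex covariate, robust fitting, and dropping each mouse in turn. Added after seeing the data was the median over all 9 genes without a filter.

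The genes and lists were chosen with earlier results of these data known. Named genes are the 9 genes, their binding partners, up to 3 genes per list in order of unadjusted p, and the 6 genes of nearest profile. Ctnnb1 was always named. Sequences were to be shown for the gene first described in each role (F13a1 and Itgax; the windows of Ccr2 and Batf3 hold annotated exons), and Ms4a6c and Siglech were added after their values were seen. Kit, Flt3, Itgam, Ms4a6b, Batf, Xcr1, Clec9a, Clec10a, Ly6d, Ccr9, Ace, Vcan, Lyz2, Ncr1, Gzma, Hba-a1 and Hba-a2 were named after their values were seen. So were Gata2, Mpo, Tpsb2 and Cma1. Positions and sequences are from RefSeq on GRCm38.p6, the assembly that mm10 names, and exons from GENCODE M21. The procedure was tested on simulated data for bcat(ex3)osb against WT: over 12653 genes with 200 changed, in 5 runs, 9.20% of 2-fold and 72.2% of 4-fold changes were called, and 4.73% of calls were false. The simulated counts were drawn independently for each gene, without an outlying library or a sex difference. These simulated rates therefore need not hold for the libraries studied. Floors of 3 counts cover counting error only. Nothing in the labels says more of how the mice were paired or processed. The p-values set the genotype difference against the spread between these mice, which edgeR estimates with information shared across genes. That spread also holds sex and the outlying library of mutant mouse 2.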

Additional observations from a re-analysis of the deposited data

How the results depend on the processing

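With edgeR 0 genes were higher and 0 lower over all genes, and also under a threshold of 0.10, other scalings, other filters, the robust fit, limma and sex as a covariate. DESeq2 called 101 higher and 68 lower. Leaving out each mouse gave between 0 and 4 higher and between 0 and 13 lower genes; mutant mouse 1 left out gave 1 and 13, and mutant mouse 3 left out gave 4 and 2. The mouse number as a replicate block gave 5 higher and 0 lower. The labels do not say that the numbers pair the mice, and same-numbered mice deviated from their group means with correlations of 0.11, 0.34 and 0.06, so no pairing was assumed. With the block the adjusted p was 0.0910 for Ccr2 and 0.120 for F13a1, and none of the 8 genes passed.

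The median log2 fold change of the 8 tested genes was 1.46. It was 0.95 on log2(FPKM + 1), a scale that shrinks low genes by construction, between 1.25 and 1.85 with 1 mouse left out, 1.29 with the replicate block, 1.35 with sex as a covariate and 1.52 over all 9 genes without a filter. Ccr2, F13a1, Ms4a6c, Ly86, Itgax and Siglech kept a positive log2 fold change in every alternative run. With sex as a covariate, where the genotype difference rests on mutant mouse 3, Ly86 was at 0.70 and Siglech at 0.32. Cx3cr1 turned negative by limma-voom (-0.60), on log2(FPKM + 1) (-0.12) and log2(FPKM + 0.1) (-0.58), with the replicate block (-0.75) and with sex as a covariate (-1.04), and ran from -1.76 to 1.02 with 1 mouse left out. Batf3 turned to -0.037 by limma-voom. The cause of these reversals was not tested. Low counts limit Cd209a and Batf3.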
